A study of Homo sapiens with 4 samples.

Results

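This account covers the genes of the kinetochore, the mitotic spindle and the spindle assembly checkpoint in Kit225 cells exposed to NC1153. The list names 46 genes, and a gene was measured where the platform annotation gives at least 1 probe set to it alone, under its current or an older symbol. That held for 45 genes with 87 probe sets, out of 19775 genes and 54613 probe sets tested on the array. CENPJ is listed by the annotation as CPAP, and CENPP has no probe set of its own, so it is not analysed here. Of the measured genes, 15 carry the name CENP and 30, called spindle and checkpoint genes here, belong to the outer kinetochore, the checkpoint, the chromosomal passenger complex with the shugoshins, or the spindle. Where a gene has several probe sets, its values come from the brightest one on average, unless another is named.

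Kit225 is a human leukemic T cell line that needs interleukin-2 (IL-2) to grow, and all cells were cultured with 20 U/ml of recombinant human IL-2. NC1153, known as an inhibitor of the kinase JAK3, which passes on the IL-2 signal, was added for 12 hours at a labelled dose of 25 mM, whose unit could not be checked, and the other cells received 0.1% DMSO, its solvent, for the same time. Each condition has 2 Affymetrix HG-U133 Plus 2.0 arrays of total RNA from this 1 cell line. Separate cultures are not stated for the replicates, and p-values then cover no more than the variation among these 4 samples, part or all of which could be technical. Scaling factors were 6.68 and 2.97 for NC1153 and 2.88 and 2.66 for DMSO per the file header, so NC1153 replicate 1 needed the most scaling up. The header's ratio of 3' to 5' signal of beta-actin, a sign of RNA quality, was 4.47 and 3.89 for NC1153, against 3.54 and 3.82 for DMSO, and its part in the results was not tested. The T cell genes CD2, CD4, PTPRC and IL2RA were bright on all arrays, while CD3D, CD3E, CD3G and LCK stayed between a signal of 6.97 and one of 139.9. B cell, myeloid and erythroid markers, 8 measured of 11 listed, lay between 4.12 and 231. Of 4 markers of adherent or epithelial cells, VIM, which lymphoid cells also express, was bright, and KRT8, EPCAM and COL1A1 lay between 4.08 and 240.5.

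Chromosomes are moved in mitosis through kinetochores, protein plates built on the centromere. The histone variant CENP-A marks the centromere, a constitutive network of CENP proteins binds it, and the outer KMN network (KNL1, the MIS12 complex and the NDC80 complex) grips microtubules. Unattached kinetochores feed the spindle assembly checkpoint, which holds back CDC20 until every chromosome is attached, while the chromosomal passenger complex around Aurora B corrects faulty attachments. Most of these genes are transcribed late in the cell cycle, and many of their promoters carry a cell cycle genes homology region (CHR) with the core TTTGAA, often with CCAAT boxes upstream.

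Promoter windows, from 250 bases before to 50 bases after the transcript start, were taken from RefSeq (GRCh38.p14) and matched 36 of the 45 genes. The core TTTGAA stood on either strand in 20 of these 36 genes (55.6%), against 15.6% of the 15384 array genes with a window. CCAAT, also searched on both strands with overlapping matches counted, stood in 25 of 36 (69.4%), against 41.7%. By name, TTTGAA was found in 15 of 24 spindle and checkpoint promoters and in 5 of 12 CENP promoters. It was found in 5 of the 7 genes with a window that rose and in 14 of 28 that did not pass. A match is a description of letters and was not tested as a site. The 8 windows below are those of all genes that passed and have one, 7 rising and 1 falling. Capitals mark TTTGAA and CCAAT on either strand. The windows are chr1:37692266-37692565 (plus strand) for CDCA8, chr13:24922812-24923111 (minus strand) for CENPJ, chr5:163460382-163460681 (plus strand) for HMMR, chr15:90994486-90994785 (minus strand) for PRC1, chr18:2571307-2571606 (plus strand) for NDC80, chr18:50374796-50375095 (plus strand) for SKA1, chr4:184734047-184734346 (minus strand) for CENPU and chr4:120066799-120067098 (minus strand) for MAD2L1.
CDCA8: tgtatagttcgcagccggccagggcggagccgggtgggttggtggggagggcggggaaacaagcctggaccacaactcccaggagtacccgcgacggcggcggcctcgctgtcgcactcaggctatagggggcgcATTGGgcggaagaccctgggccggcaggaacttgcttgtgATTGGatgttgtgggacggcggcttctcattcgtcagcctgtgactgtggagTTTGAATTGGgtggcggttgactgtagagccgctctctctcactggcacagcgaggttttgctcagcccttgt
CENPJ: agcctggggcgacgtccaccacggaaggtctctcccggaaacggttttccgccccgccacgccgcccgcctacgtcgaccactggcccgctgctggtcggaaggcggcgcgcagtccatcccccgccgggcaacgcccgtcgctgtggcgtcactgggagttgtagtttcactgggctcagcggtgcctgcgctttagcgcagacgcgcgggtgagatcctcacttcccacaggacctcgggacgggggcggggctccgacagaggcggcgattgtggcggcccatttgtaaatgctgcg
HMMR: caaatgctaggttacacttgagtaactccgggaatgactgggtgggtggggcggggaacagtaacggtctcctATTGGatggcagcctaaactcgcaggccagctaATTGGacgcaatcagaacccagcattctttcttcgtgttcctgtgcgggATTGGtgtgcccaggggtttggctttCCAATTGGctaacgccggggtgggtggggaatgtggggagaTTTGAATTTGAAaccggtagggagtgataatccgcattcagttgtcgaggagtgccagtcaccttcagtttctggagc
PRC1: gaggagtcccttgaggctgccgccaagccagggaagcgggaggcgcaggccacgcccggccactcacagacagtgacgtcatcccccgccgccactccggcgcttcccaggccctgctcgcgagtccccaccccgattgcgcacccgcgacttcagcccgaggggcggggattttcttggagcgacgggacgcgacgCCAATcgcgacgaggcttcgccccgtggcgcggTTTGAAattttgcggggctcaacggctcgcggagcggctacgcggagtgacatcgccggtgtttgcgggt
NDC80: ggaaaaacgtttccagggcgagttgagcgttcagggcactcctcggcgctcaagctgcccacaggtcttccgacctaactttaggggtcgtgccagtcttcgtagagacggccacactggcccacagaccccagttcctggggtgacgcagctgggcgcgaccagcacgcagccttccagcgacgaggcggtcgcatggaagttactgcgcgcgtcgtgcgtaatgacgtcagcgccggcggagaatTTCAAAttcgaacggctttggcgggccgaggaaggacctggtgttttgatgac
SKA1: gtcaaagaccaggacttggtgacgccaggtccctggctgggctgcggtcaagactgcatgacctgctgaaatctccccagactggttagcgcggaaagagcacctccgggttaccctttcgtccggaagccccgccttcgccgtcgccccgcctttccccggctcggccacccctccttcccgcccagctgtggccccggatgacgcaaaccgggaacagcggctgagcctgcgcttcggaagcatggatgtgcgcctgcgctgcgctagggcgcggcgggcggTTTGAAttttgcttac
CENPU: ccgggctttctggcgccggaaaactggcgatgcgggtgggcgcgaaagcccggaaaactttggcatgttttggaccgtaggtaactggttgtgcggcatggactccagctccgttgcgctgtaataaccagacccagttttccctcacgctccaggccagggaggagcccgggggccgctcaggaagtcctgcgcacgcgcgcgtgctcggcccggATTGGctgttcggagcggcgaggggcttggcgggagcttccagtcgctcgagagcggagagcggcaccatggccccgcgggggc
MAD2L1: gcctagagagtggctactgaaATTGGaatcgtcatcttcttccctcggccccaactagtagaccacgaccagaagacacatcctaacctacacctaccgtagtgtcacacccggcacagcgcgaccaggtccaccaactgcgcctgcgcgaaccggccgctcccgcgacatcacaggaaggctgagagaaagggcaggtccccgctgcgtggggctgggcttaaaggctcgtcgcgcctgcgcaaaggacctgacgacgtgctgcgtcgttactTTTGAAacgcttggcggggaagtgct
Counted from the first transcribed base as 0, TTTGAA begins at -23 in CDCA8, at -28 and again at -22 in HMMR and at -20 in PRC1. It begins at -3 in NDC80, read on the opposite strand, at 34 in SKA1 and at 24 in MAD2L1, the 1 gene that fell. The CENPU window has CCAAT on the opposite strand at -34 and no TTTGAA, and the CENPJ window has neither.

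The comparison asks which of these transcripts differed after 12 hours of NC1153. Genes of every role were among the changes: CDCA8, CENPJ, HMMR, NDC80, SKA1, TTK, KNL1, PRC1, CENPU and TPX2 rose by 1.48- to 1.85-fold, and the checkpoint gene MAD2L1 fell to 0.44 of its DMSO level. By limma with Benjamini-Hochberg adjustment over all probe sets, 10 of 45 genes were higher and 1 was lower at an adjusted p under 0.05, and 34 did not pass. Over all genes 3.09% were called higher and 2.84% lower. These genes are mostly bright, and calls are commoner among bright genes. Of the 36 with a mean signal of 1000 or more, 27.8% were higher and 2.78% lower, against 8.13% and 8.25% of all 5166 genes that bright. Both NC1153 arrays lay above both DMSO arrays for 23 of the 45 genes and below them for 8, against 24.5% and 23.8% of all genes. Among the 36 bright genes the numbers were 22 above and 7 below, against 36.8% and 34.2% of all bright genes. In RNA from bulk cells, more cells in mitosis and more of a transcript per cell cannot be told apart. The calls rest on limma's trend in the variance and on the scaling: none of the 11 passed without that trend, with an ordinary test per probe set or with each array centred on its median. Array names in the file header have a common prefix within each replicate number, without saying what it marks. With the number as a block 13 genes were higher and 3 lower. The share over all genes with the block is not given. Calls among 75 other genes of the same machinery, described below, also went from 4 higher and 2 lower to 9 and 6. Within the replicate numbers the median log2 difference of the 45 genes was 0.16 for number 1 and 0.31 for number 2. Each of the 11 calls had its direction in both. That follows from both NC1153 arrays lying beyond both DMSO arrays for each of them, and is no separate support.

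Grouped by name, CENP genes and spindle and checkpoint genes had similar medians. The numbers of calls in each group depended on the threshold and the setting. The 15 CENP genes had a median log2 difference of 0.24, ranging from -0.29 to 0.82. The 30 others had a median of 0.29, ranging from -1.18 to 0.89, and the median of all genes was 0.00. Both groups pool roles that differed. The 12 CENP genes of the centromere core, CENP-A and its constitutive network, had a median of 0.09. CENPE, CENPF and CENPJ, outside that core, had one of 0.64. Among spindle and checkpoint genes, medians by role ran from -0.10 for the KMN network to 0.56 for spindle and SKA genes. Of the CENP genes 2 rose (13.3%) and none fell, whereas 8 of the others rose (26.7%) and 1 fell (3.33%). Over all genes 3.09% rose and 2.84% fell. Among genes with a mean signal of 1000 or more, 2 of 11 CENP genes (18.2%) and 8 of 25 others (32.0%) rose, against 8.13% of all genes that bright. The difference between the shares of the 2 groups was not tested, since genes are not replicates of a condition. With the replicate number as a block, CENPL and CENPF joined the CENP genes that rose and SGO2 joined the others. Over the 4 pairings of an NC1153 array with a DMSO array, the CENP median ran from 0.11 to 0.31 and that of the others from 0.17 to 0.33. The arrays of 1 condition also differed: the median over all 45 genes was -0.17 for NC1153 replicate 1 minus replicate 2 and 0.04 for DMSO replicate 1 minus replicate 2. The difference between the NC1153 arrays was thus about as large as the smallest one between conditions, 0.16.

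**Figure D1:**
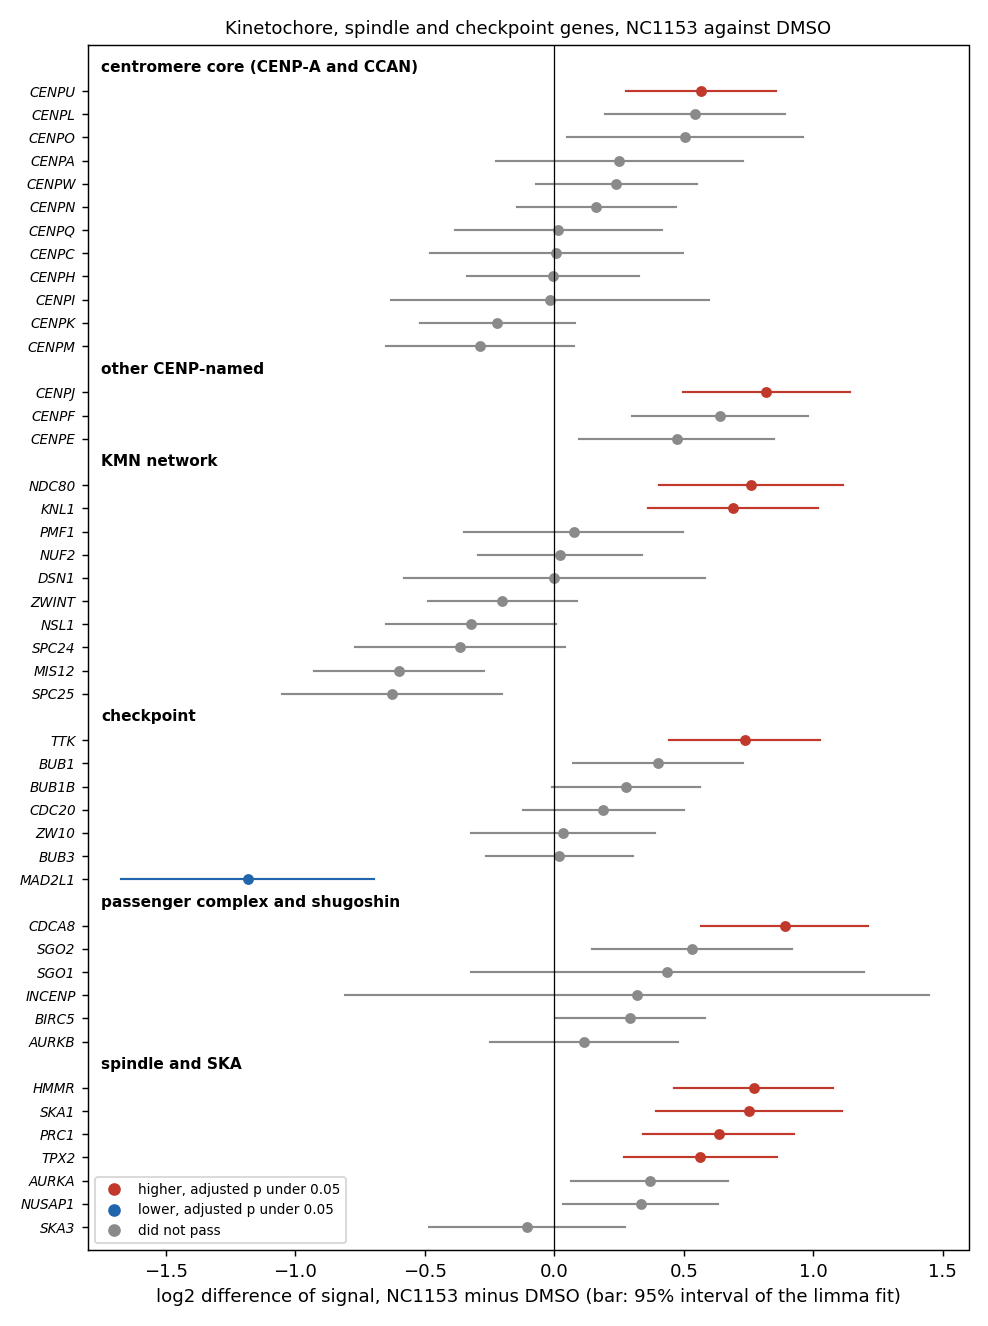
Log2 difference of the array signal, NC1153 minus DMSO (x axis), for each of the 45 genes grouped by role, with the 95% interval of the limma fit as a bar and colour for the call. The 10 genes that rose are spread over all 6 groups, MAD2L1 alone fell, and the KMN genes stretch to both sides of 0.

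Of the 12 measured genes of the centromere core, CENP-A and its constitutive network, CENPU rose and 11 did not pass, a share of 8.33% against 3.09% of all genes. Of the 8 core genes with a mean signal of 1000 or more 1 rose, 12.5% against 8.13% of all genes that bright. The median log2 difference of the core was 0.09. CENPU, which helps to bring the kinase PLK1 to kinetochores, had signals of 8381 and 8606 on the NC1153 arrays, against 5465 and 6022 on the DMSO arrays. No DMSO array reached an NC1153 array, and the log2 difference was 0.57 ± 0.13 (SE; adjusted p = 0.047). Its other 2 probe sets, with log2 differences of 0.62 and 0.63, had the same sign without passing. CENPW, a histone-fold partner of CENP-T, had signals of 7622 and 7165 on the NC1153 arrays, against 6799 and 5761 on the DMSO arrays. These groups did not overlap, yet the difference of 0.24 (adjusted p = 0.47) did not pass.

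CENPL and CENPO, both subunits of the constitutive network, showed log2 differences of 0.54 (adjusted p = 0.101) and 0.50 (adjusted p = 0.26). A second probe set of CENPL did pass, with a log2 difference of 0.71 (adjusted p = 0.047). CENPA itself, the histone H3 variant, had a log2 difference of 0.25 with overlapping arrays, and its 95% interval ran from -0.22 to 0.73. CENPC, which links CENP-A nucleosomes to the MIS12 complex, had a log2 difference of 0.01 (-0.48 to 0.50), CENPH of -0.0034 (-0.34 to 0.33), CENPI of -0.02 (-0.63 to 0.60) and CENPQ of 0.02 (-0.38 to 0.42), all with overlapping arrays. The 3 other CENPI probe sets, all dim, had the opposite sign, with log2 differences of 0.34, 0.49 and 0.63. CENPN, which reads CENP-A nucleosomes, had a log2 difference of 0.16 (adjusted p = 0.66). Of its 4 probe sets, 2 dim ones had the opposite sign, at -0.23 and -1.54. CENPK and CENPM were the 2 core genes whose NC1153 arrays both lay below the DMSO arrays, with log2 differences of -0.22 (adjusted p = 0.497) and -0.29 (adjusted p = 0.46). The rise of CENPU missed the threshold when NC1153 replicate 1 (adjusted p = 0.061), DMSO replicate 1 (0.52) or DMSO replicate 2 (0.19) was left out, with log2(signal + 50) (0.055) and with the mean of its 3 probe sets (0.056).

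The 3 CENP-named proteins outside that core, whose genes had a median of 0.64, have other jobs. CENPJ, a centriole assembly factor, rose, with signals of 2895 and 3208 on the NC1153 arrays, against 1665 and 1789.8 on the DMSO arrays. Every NC1153 value exceeded every DMSO value by a wide margin, and the log2 difference was 0.82 ± 0.14 (SE; adjusted p = 0.017). CENPF, a large outer kinetochore protein that binds dynein regulators, had signals of 7966 and 6188 on the NC1153 arrays, against 4573 and 4439 on the DMSO arrays. Its groups did not overlap either, although NC1153 replicate 1 stood well above replicate 2, and the difference of 0.64 (adjusted p = 0.053) just missed the threshold. The 2 dimmer CENPF probe sets had log2 differences of 0.05 and -0.11. CENPE, a kinesin that carries chromosomes to the spindle equator, had signals of 2613 and 2988 on the NC1153 arrays, against 1775 and 2285 on the DMSO arrays, a difference of 0.47 (adjusted p = 0.19). Without DMSO replicate 1 CENPJ did not pass (adjusted p = 0.071), nor did it with the mean of its 3 probe sets (log2 difference 0.59, adjusted p = 0.21), whereas CENPF passed without NC1153 replicate 2 (adjusted p = 0.014, log2 difference 0.82).

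Values in the KMN network lay on both sides of 0. Of its 10 genes, 2 rose (20.0%), none passed as lower and 8 did not pass. Of all genes 3.09% rose and 2.84% fell, and of bright genes 8.13% and 8.25%. Both NC1153 arrays lay below both DMSO arrays for 5 of the 10, against 23.8% of all genes and 34.2% of bright genes. The median of the network was -0.10. NDC80, the subunit that touches microtubules, had signals of 4419 and 5581 on the NC1153 arrays, against 3133 and 2743 on the DMSO arrays, a log2 rise of 0.76 ± 0.16 (SE; adjusted p = 0.032). KNL1, the scaffold that recruits BUB kinases, had signals of 2709 and 2426 on the NC1153 arrays, against 1579 and 1597 on the DMSO arrays, a log2 rise of 0.69 ± 0.15 (SE; adjusted p = 0.034). Both genes were separated between conditions by more than either condition's own spread. The 3 dimmer KNL1 probe sets did not pass, with log2 differences of 0.57, 0.71 and, at a mean signal of 9.18 with NC1153 and 17.8 with DMSO, -1.15. With the mean of all 4 the log2 difference of KNL1 was 0.20 and did not pass (adjusted p = 0.85).

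The genes of their partners did not pass. NUF2, which pairs with NDC80, had a log2 difference of 0.02 (-0.29 to 0.34), and SPC24 and SPC25, the inner end of the complex, had log2 differences of -0.36 (adjusted p = 0.38) and -0.63 (adjusted p = 0.12). ZWINT, which binds KNL1, had signals of 9727 and 8987 on the NC1153 arrays, against 11055 and 10446 on the DMSO arrays, a log2 difference of -0.20 (adjusted p = 0.52). In the MIS12 complex, MIS12 had a log2 difference of -0.60 (adjusted p = 0.0599), NSL1 -0.32 (adjusted p = 0.33), DSN1 -0.00032 (-0.58 to 0.58) and PMF1 0.07 (-0.35 to 0.50). NSL1, one of the 2 brightest genes of the network with ZWINT, had signals of 4004 and 4824 on the NC1153 arrays, against 5195 and 5804 on the DMSO arrays. SPC25 passed as lower without NC1153 replicate 2 (adjusted p = 0.022), NDC80 did not pass without NC1153 replicate 2 (0.064) or DMSO replicate 2 (0.13), and KNL1 did not without NC1153 replicate 1 (0.0899), DMSO replicate 1 (0.16) or DMSO replicate 2 (0.11).

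In the checkpoint, 1 of 7 genes rose and 1 fell, 14.3% each, against 3.09% and 2.84% of all genes. Among all bright genes the shares were 8.13% and 8.25%. MAD2L1, whose protein binds CDC20 to block anaphase, had signals of 4069.5 and 6887 on the NC1153 arrays, against 12526 and 11550.5 on the DMSO arrays. Both NC1153 arrays lay far below DMSO, though they differed from each other by more than the DMSO arrays did, and the log2 difference was -1.18 ± 0.22 (SE; adjusted p = 0.0201). A second MAD2L1 probe set had signals of 5528 and 5991 on the NC1153 arrays, against 9850.5 and 9268 on the DMSO arrays, a fall of 0.73 on the log2 scale (adjusted p = 0.017). The third, dim one had the same sign, with a log2 difference of -0.57 (adjusted p = 0.19). TTK, the kinase MPS1 that starts checkpoint signalling, had signals of 5854 and 6152 on the NC1153 arrays, against 3507 and 3705 on the DMSO arrays, a log2 rise of 0.74 ± 0.13 (SE; adjusted p = 0.017).

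The other 5 checkpoint genes did not pass. BUB1, a kinase that docks on KNL1, had a log2 difference of 0.40 (adjusted p = 0.21) and BUB1B, which encodes the CDC20 inhibitor BUBR1, one of 0.28 (adjusted p = 0.34), both with NC1153 arrays above DMSO arrays. BUB3, their binding partner, had signals of 15016 and 16324 on the NC1153 arrays, against 15263 and 15614 on the DMSO arrays, an overlap, with a difference of 0.02 (-0.27 to 0.31). Its 6 probe sets disagreed: 4 had the opposite sign, while another with the same sign had a log2 difference of 0.52 (adjusted p = 0.074). CDC20, the activator of the anaphase-promoting complex, had a log2 difference of 0.19 (adjusted p = 0.595) and ZW10, which brings dynein to kinetochores, one of 0.03 (-0.32 to 0.39). MAD2L1 passed whichever array was left out (log2 difference -1.56 to -0.80), while TTK did not without DMSO replicate 1 (adjusted p = 0.13) or, just over the threshold, DMSO replicate 2 (0.050003).

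**Figure D2:**
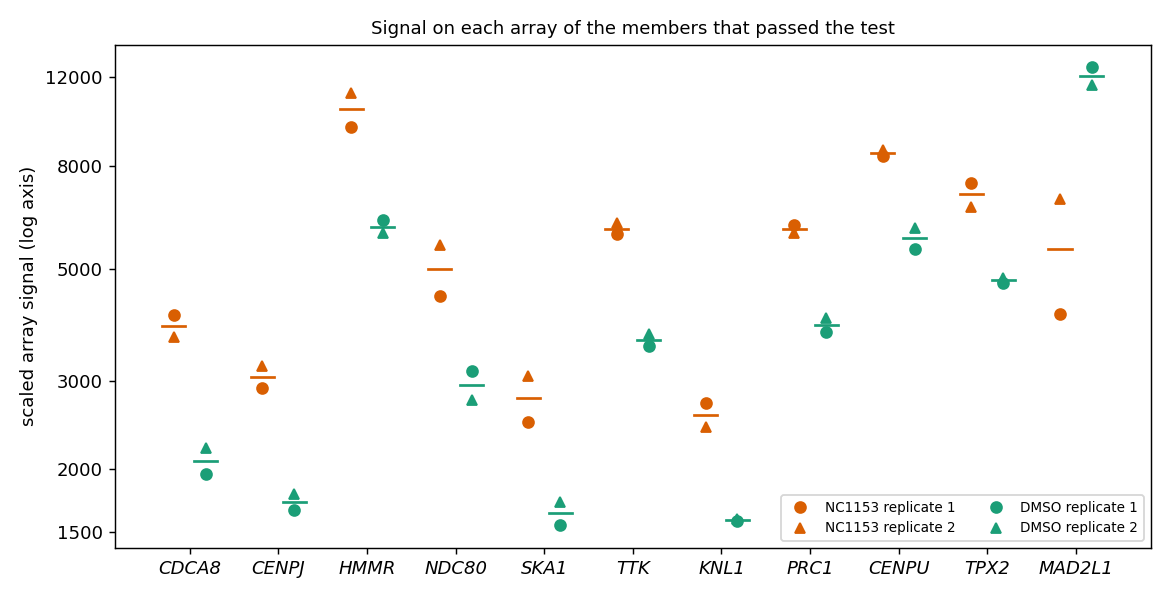
Scaled signal (y axis, log scale) of the 11 genes that passed, with circles for replicate 1, triangles for replicate 2 and a line at the mean of each condition. The conditions do not overlap for any of the 11 genes, and MAD2L1 shows the widest gap between NC1153 arrays, 4069.5 and 6887.

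In the chromosomal passenger complex, the gene of 1 subunit rose. With the shugoshins that was 1 of 6 genes (16.7%), against 3.09% of all genes and 8.13% of bright genes. CDCA8, which encodes borealin, the subunit that helps to place the complex on centromeres, had signals of 4047 and 3655 on the NC1153 arrays, against 1955 and 2204 on the DMSO arrays. Its means were 3851 ± 277 with NC1153 and 2079 ± 176 with DMSO (SD, n = 2 each), the log2 difference was 0.89 ± 0.14 (SE; adjusted p = 0.012), and it was the largest rise of the 45 genes. BIRC5, which encodes survivin, had signals of 5835 and 5461 on the NC1153 arrays, against 4549 and 4662 on the DMSO arrays, a log2 difference of 0.29 (adjusted p = 0.31) with no overlap. AURKB, the kinase of the complex, had a log2 difference of 0.11 (-0.25 to 0.48) with overlapping arrays. INCENP, the scaffold, was dim, at 130.5 ± 41.8 with NC1153 and 103 ± 25.2 with DMSO (SD, n = 2 each), and its interval of -0.81 to 1.45 takes in 0. SGO2, a shugoshin that protects centromeric cohesion, had signals of 3248 and 4501 on the NC1153 arrays, against 2606 and 2685 on the DMSO arrays, a log2 difference of 0.53 (adjusted p = 0.15), and SGO1, its relative, one of 0.44 (adjusted p = 0.63). CDCA8 passed whichever array was left out (adjusted p 0.0047 to 0.047), and SGO2 passed without NC1153 replicate 1 (0.039).

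Spindle and SKA genes had the highest share of rises of the 6 role groups, 4 of 7 (57.1%), with a median of 0.56. Of all genes 3.09% rose, and of bright genes 8.13%. HMMR, a microtubule-binding protein of spindle poles, had signals of 9546 and 11174 on the NC1153 arrays, against 6237 and 5883 on the DMSO arrays, a log2 rise of 0.77 ± 0.14 (SE; adjusted p = 0.017). Its second probe set had a log2 rise of 1.00 (adjusted p = 0.0087). SKA1, part of a complex that keeps kinetochores on shrinking microtubules, had signals of 2488 and 3062 on the NC1153 arrays, against 1554 and 1725 on the DMSO arrays, a log2 rise of 0.75 ± 0.16 (SE; adjusted p = 0.035), whereas its partner SKA3 had a log2 difference of -0.11 (-0.48 to 0.27). PRC1, which bundles microtubules of the central spindle, had signals of 6115 and 5896 on the NC1153 arrays, against 3739.7 and 3995 on the DMSO arrays, a log2 rise of 0.64 ± 0.13 (SE; adjusted p = 0.0295).

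TPX2, the activator of Aurora A, had signals of 7402 and 6637 on the NC1153 arrays, against 4681 and 4802 on the DMSO arrays, a log2 rise of 0.56 ± 0.13 (SE; adjusted p = 0.0496) at the edge of the threshold. AURKA, the kinase it activates, had a log2 difference of 0.37 (adjusted p = 0.21), but its second probe set, nearly as bright, passed with a log2 difference of 0.65 (adjusted p = 0.027). NUSAP1, a microtubule stabiliser, behaved alike: its brightest probe set had signals of 10375 and 11746 on the NC1153 arrays, against 9092 and 8438 on the DMSO arrays, a log2 difference of 0.33 (adjusted p = 0.25), and the second passed with a log2 difference of 0.62 (adjusted p = 0.035). In all 7 spindle and SKA genes except SKA3 both NC1153 arrays lay above both DMSO arrays. The same held for 24.5% of all genes and 36.8% of bright genes. The rise of HMMR missed the threshold without DMSO replicate 1 (adjusted p = 0.057) or DMSO replicate 2 (0.101), SKA1 without NC1153 replicate 2 (0.074) or DMSO replicate 1 (0.16), and both PRC1 and TPX2 without NC1153 replicate 1 (0.058 and 0.085), DMSO replicate 1 (0.3 and 0.39) or DMSO replicate 2 (0.12 and 0.26). TPX2 also missed it with log2(signal + 50) (adjusted p = 0.053).

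Every probe set that passed was bright. Of the 87 probe sets, 14 were higher and 2 lower (over all probe sets 1.94% and 1.78%). All 16 were among the 49 with a mean signal of 1000 or more, and 0 of the 38 dimmer ones passed. Calls were commoner among bright genes over the whole array too. Of genes with a mean signal of 1000 or more 8.13% were higher and 8.25% lower, against 3.09% and 2.84% of all genes. Of the 20 genes with several probe sets, 9 had at least 1 of opposite sign to the brightest. These were CENPI, CENPN, CENPF, KNL1, NSL1, SPC24, BUB1, BUB3 and BIRC5. Counting a gene as higher when any of its probe sets passed, a count added after seeing the data, gave 13 genes. CENPL, AURKA and NUSAP1 joined. The share of all genes under that rule is not given, and the 3.09% holds for the brightest probe set only.

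**Figure D3:**
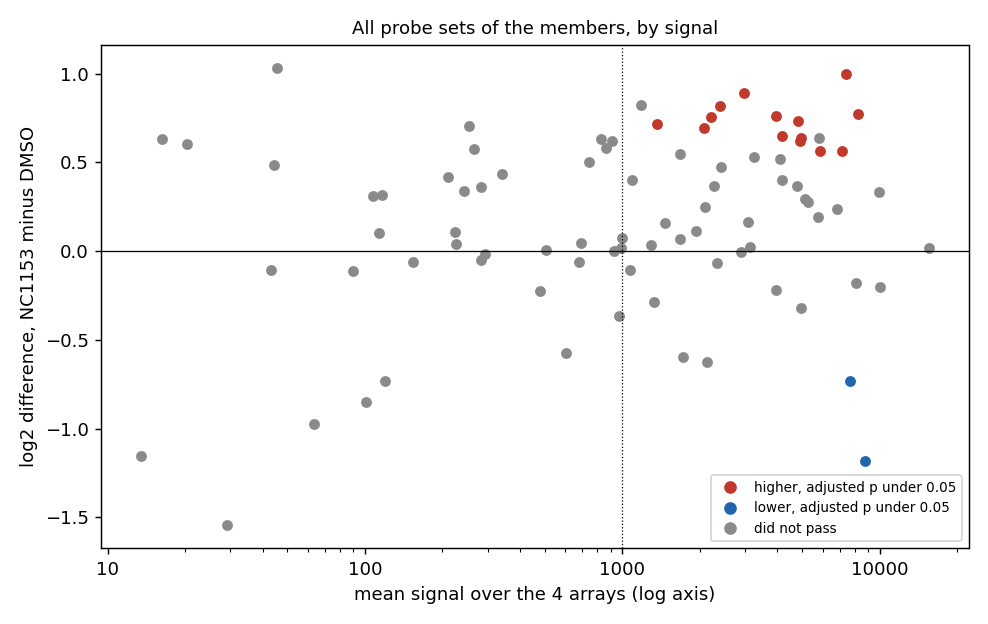
Log2 difference, NC1153 minus DMSO (y axis), of all 87 probe sets against their mean signal over the 4 arrays (x axis, log scale), coloured by call, with a dotted line at a signal of 1000. The 16 probe sets that passed lie right of that line, and dim probe sets scatter to both sides of 0.

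The direction of the whole set depended on the scale. Spiked-in bacterial and phage controls had mean log2 signals of 12.00 and 11.66 on the NC1153 arrays, against 11.46 and 11.34 on the DMSO arrays, and centring on their 18 probe sets gave a median over all probe sets of -0.41, against 0.02 as deposited. The CENP median then became -0.19 and that of spindle and checkpoint genes -0.15, since this centring shifts every probe set of an array alike. With spike-in centring MAD2L1 passed (log2 difference -1.61) and none of the 10 rises did, although each of the 10 kept a positive value, between 0.13 and 0.46. After quantile normalization all 11 calls remained and CENPF joined (adjusted p = 0.042). As deposited 33 of the 45 genes were above 0, as were 9905 of all 19775 genes and 2678 of the 5166 bright ones. With each array centred on its median 27 of 45 were above 0 and none passed. The median over all probe sets was then -0.07.

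**Figure D4:**
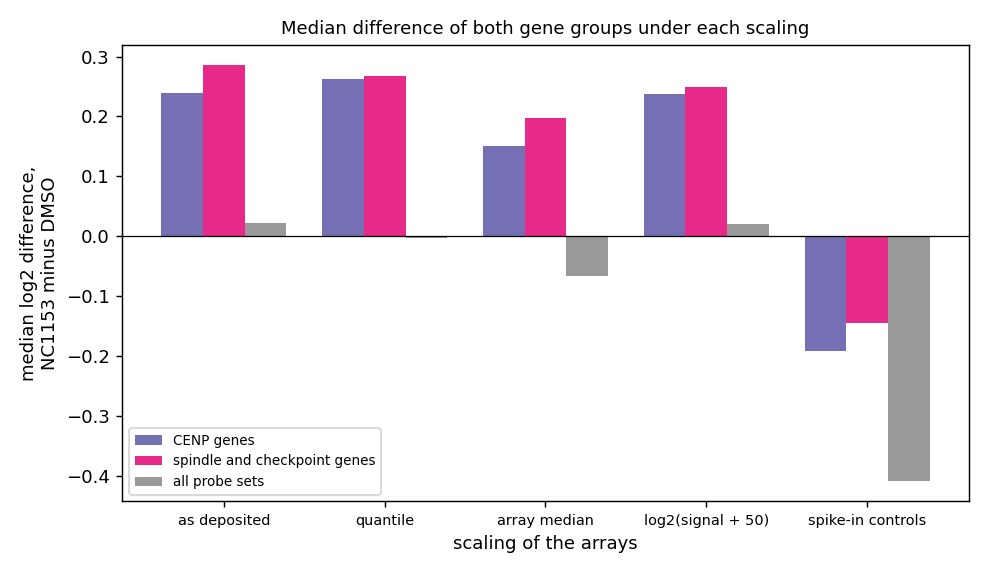
Median log2 difference, NC1153 minus DMSO (y axis), of the 15 CENP genes, the 30 spindle and checkpoint genes and all probe sets (bars) under 5 scalings of the arrays (x axis). All 3 medians are below 0 with spike-in centring, which like median centring shifts every probe set of an array by the same amount and so leaves the distances between the bars as they were.

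Other genes of the same machinery were taken from lists of centromere, kinetochore, anaphase-promoting complex, cohesin, condensin, spindle and cytokinesis genes. Of 75 measured of 78 listed, 4 rose and 2 fell (5.33% and 2.67%), against 3.09% and 2.84% of all genes, and the median was 0.02. Of the 66 with a mean signal of 1000 or more, 6.06% rose and 3.03% fell, against 8.13% and 8.25% of all genes that bright. None of 7 other centromere genes and none of 12 other kinetochore and checkpoint genes passed by limma, while 4 and 2 of them had an unadjusted p under 0.05, as had 20.3% of all genes and 43.9% of bright genes. Of 19 genes of the anaphase-promoting complex and separase, ANAPC16, a small subunit, had signals of 4719.6 and 3687 on the NC1153 arrays, against 2189 and 1915 on the DMSO arrays, a log2 rise of 1.03 ± 0.16 (SE; adjusted p = 0.011), and 18 did not pass. Of 17 cohesin and condensin genes, NCAPG, a condensin I subunit, rose by 0.76 on the log2 scale (adjusted p = 0.016) and NCAPD3, a condensin II subunit, fell by 0.71 on the log2 scale (adjusted p = 0.025). Of 20 spindle and cytokinesis genes, TACC3, which stabilises kinetochore fibres, rose by 0.83 on the log2 scale (adjusted p = 0.031), and TUBG1, the gamma-tubulin that nucleates microtubules, fell by 0.84 on the log2 scale (adjusted p = 0.012). BORA, an activator of Aurora A, also rose, by 0.60 on the log2 scale (adjusted p = 0.046). The median of this last list was 0.35, against 0.03 for the anaphase-promoting complex and separase and -0.03 for cohesin and condensin. Of its 20 genes, 12 had both NC1153 arrays above both DMSO arrays, against 24.5% of all genes and 36.8% of bright genes.

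The authors' deposited table of RMA values is a selection at their q-value limit of 0.05 from the same 4 arrays. It holds 2252 of the array's 54675 probe sets, among them 11 of the 87 described here, from 10 genes. Of these 11, 10 are higher and the 1 of MAD2L1 is lower with NC1153 in the authors' deposited table. Here 10 of the 11 were called, the same sign holding for all 11. The authors' selection was made on the same arrays, so these matches are no separate support. The share of all 2252 that was called here is not given, so 10 of 11 cannot be read as particular to these genes. For NDC80 the authors' deposited table gives RMA values of 10.62 and 10.77 on the NC1153 arrays, against 9.87 and 9.70 on the DMSO arrays, a log2 difference of 0.91. For the second MAD2L1 probe set the authors' deposited table gives 10.96 and 11.03 on the NC1153 arrays, against 11.67 and 11.61 on the DMSO arrays. SKA1 and TPX2, called here, have no probe set in the authors' deposited table, and CENPU is there by a probe set that did not pass here.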

How the data were processed

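Total RNA of Kit225 cells was hybridised to 4 arrays, 2 per condition, with groups taken from the sample titles. The authors' deposited intensities are linear signals of 54675 probe sets, scaled so that the mean after trimming 2% at each end is near 500.1 on each array, and the software behind them is not given in the sources used here. Per the file headers, the second table holds log2 values from RMA with an unadjusted limma p-value per probe set, selected at a q-value of 0.05. It served only for comparison.

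Log2 of the signal, without a pseudocount, was analysed in R 4.3.3 with limma 3.58.1 (lmFit, then eBayes with trend=TRUE) over the 54613 non-control probe sets, NC1153 minus DMSO. Tests were two-sided, and a gene passed at a p under 0.05 after Benjamini-Hochberg adjustment over all probe sets. The fit has 2 residual and 7.27 prior degrees of freedom. It was run on simulated data whose variances were drawn from the same fitted prior, without scaling differences between arrays. That run could therefore not check the variance trend or the scaling on which the calls rest. Of the probe sets, 41091 have 1 gene in the platform annotation, 1801 several and 11721 none. Symbols were updated by gene identifier from RefSeq (GRCh38.p14). The number of arrays limits the precision.

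The genes, lists and rules were chosen with earlier results of these data known. All members are named, with the value on each array for those that passed and for the 2 brightest of each role group. Of each list of other genes, up to 2 that passed are named. BORA, CENPB, CENPT and CENPX were added after their values were seen. Alternatives covered variance model, scaling, filters, probe set choice, threshold, replicate block and leaving out each array.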

Additional observations from a re-analysis of the deposited data

How the results depend on the processing

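As reported, 10 genes were higher and 1 lower. Untrended limma called 0 higher and 0 lower (2 and 1 at unadjusted p under 0.05), and a test of each probe set alone likewise called 0 and 0 (12 and 1 at that level). Centring on the array median gave 0 and 0 (4 and 2 at that level), and spike-in centring gave 0 higher and 1 lower (0 and 8 at that level). The number lower was 2 with log2(signal + 50), 2 without dim probe sets and 2 at an adjusted p under 0.1, MIS12 being the addition each time. Those settings, quantile normalization and the mean of all probe sets of a gene left 7 to 12 higher. Leaving out single arrays gave 2 to 9 higher and 1 to 2 lower: 7 higher without NC1153 replicate 1, 9 without NC1153 replicate 2, 2 without DMSO replicate 1 and 3 without DMSO replicate 2, where a lone array is assumed to vary like the others. With the replicate block 13 were higher and 3 lower, with all 11 calls kept and CENPL, CENPF, SGO2, MIS12 and SPC25 added. That replicate numbers pair the samples is not stated, and deviations of equally numbered arrays correlated at r = 0.203 over the 87 probe sets described here, 0.117 over the 27306 brighter of the array and 0.0546 over all. With spike-in centring the medians were -0.19 for CENP genes and -0.15 for the others. With all 4 arrays and other settings they ran from 0.15 to 0.26 and from 0.20 to 0.29, and without single arrays they were 0.12 to 0.23 and 0.16 to 0.29. The 4 and 2 calls among other genes of the machinery became 9 and 6 with the block, 7 and 5 without dim probe sets, 8 and 5 at an adjusted p under 0.1, and 0 and 0 without a trend, with an ordinary test and with median centring. They were 2 and 3 with the mean of all probe sets of a gene, 5 and 3 after quantile normalization, 0 and 3 with spike-in centring, and 1 to 4 and 1 to 6 without single arrays, these runs having been added after seeing the data. No call changed sign under any alternative. The causes of these shifts were not tested. Shares of all genes called under the alternatives are not given, so these counts cannot be set against them.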
